A study of Mus musculus with 12 samples.

Results

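The interleukins, the tumour necrosis factor (TNF) family and their receptors were followed across the 4 groups of the series as the genes whose symbols begin with Il and a digit, Tnfsf or Tnfrsf, together with Tnf, Lif, Lifr, Osm and Osmr. Of 19938 genes read by a probe set annotated to a single symbol, 110 were members, and 70 of these were bright enough to be tested. The samples were ascending aortas taken from mice at 6 weeks of age, and their RNA had been hybridised to 12 whole-transcript microarrays, 3 in each group. All animals were Tgfbr2f/f, with both copies of this TGF-beta receptor gene floxed, and carried Myh11-CreERT2, a recombinase driven by a smooth muscle myosin promoter that works once tamoxifen is given. Wild-type controls and wild-type knockouts had normal Fbn1, and mutant controls and mutant knockouts were heterozygous for Fbn1C1039G, an allele of fibrillin-1 used as a model of Marfan syndrome. From 4 weeks of age the knockout groups received 1 mg of tamoxifen into the abdomen on 5 days and the control groups received corn oil. Knockout against control is therefore also tamoxifen against vehicle. The promoter that drives Cre is that of smooth muscle, and recombination itself was not measured by these arrays. Whether arrays of one group stand for different animals is not given by the labels, so the p-values reflect only how far these samples spread, and that spread may be technical.

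Interleukins are secreted signals that act through receptor chains on the cell surface, most of them through JAK kinases and STAT transcription factors, and those of the IL-1 and IL-17 families through adaptors that lead to NF-kB. TNF ligands act as trimers on receptors that recruit TRAF proteins or death domain adaptors, and several receptors of the family are decoys that bind a ligand without passing on a signal. In the wall of the aorta, smooth muscle cells, endothelium, fibroblasts and resident macrophages carry such receptors, and macrophages carry many that smooth muscle does not.

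Median intensity was between 301 and 334 per array, and correlations of log2 values were between 0.995 and 0.997 within groups. Tgfbr2 itself was at log2 11.95 ± 0.01 (SD, n = 3) in the controls with normal Fbn1, 11.87 ± 0.08 in wild-type knockouts, 11.99 ± 0.04 in mutant controls and 12.03 ± 0.05 in mutant knockouts. The difference was -0.08 in the wild-type (limma adjusted p = 0.324) and 0.04 in the mutant (limma adjusted p = 0.594). The probe set thus showed no clear loss of the targeted gene. The position of its probes was not analysed here, and the word knockout follows the labels. Smooth muscle markers were bright on every array, with a summed intensity over 12 genes between 140070 and 144581. Of 17 macrophage markers tested, 15 rose in the wild-type knockouts with a median change of 0.98, and 10 rose in the mutant knockouts with a median change of 0.36. The summed intensity of the 18 macrophage markers measured ran from 19354.5 to 22303 in wild-type controls and from 32866 to 35013 in wild-type knockouts, and from 18383 to 24101 in mutant controls and from 26909 to 28091 in mutant knockouts. Only Aif1 among them was below the level filter. Of 14 endothelial markers 6 rose and 1 fell in the wild-type knockouts, and 7 rose and 1 fell in the mutant knockouts. Of 14 lymphocyte markers measured, 9 were below the filter, among them Cd3d, Cd3g, Cd79a and Ms4a1. In RNA of whole tissue, more cells of a type and more RNA per cell cannot be told apart.

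Which members stood at background was read from the mean level. The filter lay at log2 7.31, the 25th percentile of mean levels over probe sets with 1 symbol, and 40 of the 110 members lay below it, with means from 5.03 to 7.31. Every one of the 20 TNF receptor genes and of the 11 IL-17 family genes was tested. Of the IL-6 family 9 of 12 were tested, of the IL-2 and IL-4 group 8 of 16, of the IL-10 family 5 of 10, of the IL-12 family 3 of 6, of the TNF ligands 5 of 10, of the IL-1 family 6 of 18 and of the IL-3 and IL-5 group 1 of 4. Among ligands below the filter, Il6 had a mean of 5.04, Il1a of 5.62, Il10, which restrains macrophages, of 5.92, Il18 of 6.79 and Osm, the ligand oncostatin M, of 7.16. Il1b at 7.48, Il17a at 7.59 and Il33 at 10.47 passed the filter. Tnf itself lay just below the filter at 7.31, next to Il2rb, a receptor chain for IL-2 and IL-15, at 7.21 and Il9 at 7.16. Just above it lay Tnfrsf26 at 7.37, Il19 at 7.38 and Il1f5 at 7.42, so these 6 genes were parted by a small step in brightness. Of the 23 tested members with a mean under 8, 2 were called in any comparison, against 8 of the 15 with a mean of 10 or more. The same split was not made over all genes, so it is not read as particular to the members. Il1r1, Il1rl1, Il2rg and Il11ra1, which fit the rule by name, were not analysed here. Nor were Tnfsf12 and Tnfsf13, which shared a probe set, or Il22 and Il4i1, whose probe sets also carried several symbols.

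**Figure D1:**
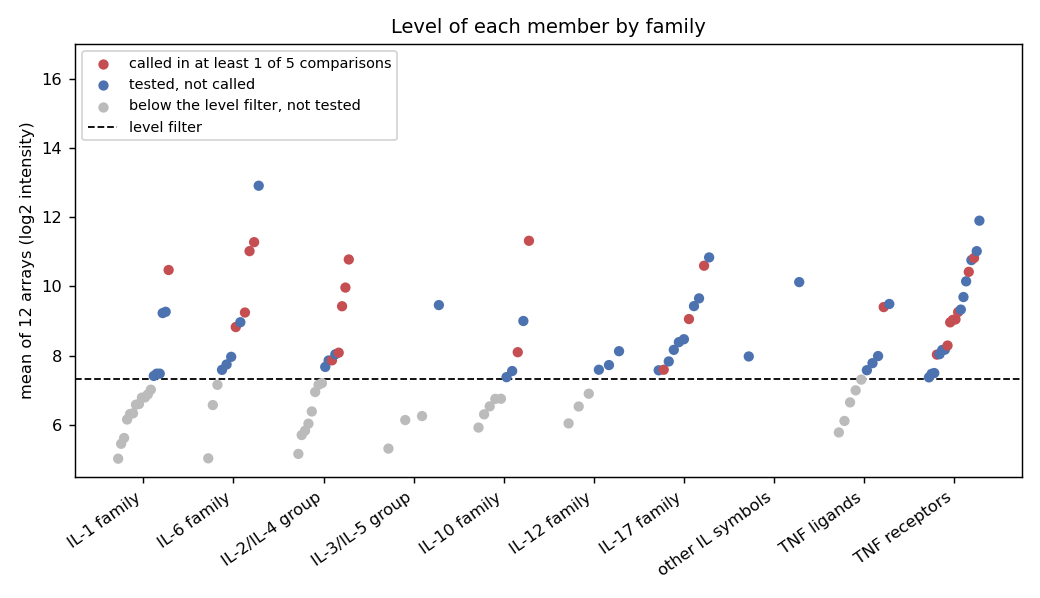
Mean log2 intensity of each member over 12 arrays (vertical axis), with members set out by family (horizontal axis) and the antisense RNA Il1bos left out. Grey points under the dashed line at 7.31 were not tested, and red points passed the test in at least 1 of 5 comparisons; heights of different genes are not comparable, since each is read by its own probes.

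With normal Fbn1, the knockout aortas had higher levels of 13 members and lower levels of 2 (limma, Benjamini-Hochberg adjusted p under 0.05). All that rose were receptor genes except the IL-1 family cytokine Il33 and the ligand Tnfsf13b. The decoy receptor Tnfrsf11b moved furthest, and Il17ra, Il10ra, Osmr, Tnfrsf1b, Il33, Il13ra1, Il4ra, Tnfsf13b, Il6ra, Il27ra, Il21r and Il10rb followed. Tnfrsf11a and Il17b fell. Of all genes tested 18.8% were called in this comparison, 9.17% upward and 9.66% downward, so the 15 of 70 members called are a share near that of all genes, and their direction was more often upward. The median change was 0.05 over the 70 members and -0.01 over all genes tested. The 3 knockout arrays did not overlap the 3 control arrays in 24 members, 19 higher and 5 lower, where 35.8% of all genes did not overlap, 16.2% higher and 19.6% lower. The count of 15 was 9 without wild-type control 2 and between 10 and 15 without any other array.

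Tnfrsf11b encodes osteoprotegerin, a secreted receptor that captures the ligand RANKL and keeps it from its receptor RANK. On the 3 wild-type control arrays its probe set (10428604) was at log2 9.93, 9.90 and 9.98, and on the 3 wild-type knockout arrays at 11.05, 11.09 and 11.16. In the Fbn1 mutant it was at 10.29, 10.07 and 10.12 in controls and at 10.65, 10.43 and 10.36 in knockouts. Knockouts lay above controls in both genotypes without overlap, and the wild-type knockouts lay above all other arrays. The rise in the wild-type was 1.17 ± 0.08 (log2 difference with limma's SE, 3 arrays a group), a 2.25-fold change, with a limma adjusted p of 2.28e-06.

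Tnfrsf11a, the signalling receptor RANK, went the other way. It was at 11.02, 10.99 and 11.11 in wild-type controls and at 10.69, 10.78 and 10.68 in wild-type knockouts, with no overlap, and fell by 0.32 ± 0.07 (limma adjusted p = 0.0056). In the mutant it was at 10.90, 10.84 and 10.87 in controls and at 10.64, 10.53 and 10.81 in knockouts, a difference of -0.21 that missed the threshold (limma adjusted p = 0.0543). Tnfsf11, the gene of the ligand RANKL, was at 9.46, 9.45 and 9.56 in wild-type controls and at 9.49, 9.72 and 9.46 in wild-type knockouts. These overlapped, and the difference was 0.06 with a 95% confidence interval from -0.11 to 0.24. The 3 genes of this one signalling unit thus had 1 member higher, 1 lower and 1 without a call in the same arrays.

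The 2 receptors of TNF itself also parted. Tnfrsf1b, the receptor TNFR2 that is found mainly on blood cells and endothelium, was at 8.74, 8.88 and 8.93 in wild-type controls and at 9.30, 9.22 and 9.39 in wild-type knockouts. It rose by 0.46 ± 0.06 (limma adjusted p = 0.000377), without overlap. Tnfrsf1a, the widely expressed death domain receptor TNFR1, was at 11.71, 11.86 and 11.92 in controls and at 11.82, 11.91 and 11.89 in knockouts, with a difference of 0.04 (95% confidence interval -0.08 to 0.17). Tnfrsf12a, the receptor of the ligand TWEAK, had a difference of 0.23 ± 0.13 and was not called (limma adjusted p = 0.239).

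Among receptors of the IL-6 family, Osmr, the oncostatin M receptor chain that pairs with the shared chain gp130, was at 11.08, 11.10 and 10.93 in wild-type controls and at 11.54, 11.65 and 11.53 in wild-type knockouts. It rose by 0.54 ± 0.09, a 1.45-fold change (limma adjusted p = 0.00195). In the mutant its groups overlapped, at 11.23, 11.06 and 11.33 against 11.34, 11.08 and 11.46, with a difference of 0.08 (95% confidence interval -0.12 to 0.29). Il27ra, the receptor chain of IL-27, rose by 0.34 ± 0.06 in the wild-type (limma adjusted p = 0.00294), from 8.67, 8.68 and 8.55 to 9.02, 9.05 and 8.87. Il6ra, the chain that binds IL-6, rose by 0.35 ± 0.10 (limma adjusted p = 0.0304), from 9.27, 9.20 and 9.04 to 9.48, 9.54 and 9.52. In all 3 genes the wild-type groups did not overlap. Their partner Il6st, which encodes gp130, was at 12.99, 12.94 and 13 in wild-type controls and at 12.88, 12.88 and 12.92 in wild-type knockouts, and its difference was -0.08 (95% confidence interval -0.17 to 0.01) and was not called. Lifr, the partner chain for leukaemia inhibitory factor, had a difference of -0.12 ± 0.10. The ligands Il11 and Lif, at differences of 0.15 ± 0.07 and 0.11 ± 0.09, were not called either.

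In the IL-17 family the common receptor chain and 1 ligand moved apart. Il17ra was at 8.96, 8.87 and 8.84 in wild-type controls and at 9.31, 9.55 and 9.52 in wild-type knockouts, and rose by 0.57 ± 0.08 (limma adjusted p = 0.000332). In the mutant all 3 control arrays lay at 8.81 and the knockouts at 8.95, 9.03 and 9.24. Il17b, a ligand of the family, was at 10.69, 10.84 and 11.20 in wild-type controls and at 10.38, 10.33 and 10.57 in wild-type knockouts, and fell by 0.48 ± 0.12 (limma adjusted p = 0.0144). Its mutant groups overlapped, with a difference of -0.11 ± 0.12. Il17rc, the chain that joins Il17ra in the receptor of IL-17A, had a difference of -0.15 ± 0.06 in the wild-type and was not called (limma adjusted p = 0.0838).

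Receptors of IL-4, IL-13, IL-10 and IL-21 rose in the wild-type knockouts. Il10ra, the chain that gives cells their response to IL-10 and is found on blood cells, was at 7.71, 7.85 and 8.07 in wild-type controls and at 8.51, 8.33 and 8.41 in wild-type knockouts, a rise of 0.54 ± 0.08 (limma adjusted p = 0.000657). Il13ra1, a chain for IL-13 and IL-4, was at 10.53, 10.49 and 10.59 in controls and at 11.01, 10.83 and 11 in knockouts, a rise of 0.41 ± 0.08 (limma adjusted p = 0.00293). Neither gene had overlapping groups. Il4ra, the chain shared by the receptors of IL-4 and IL-13, rose by 0.41 ± 0.10 (limma adjusted p = 0.0134), from 9.87, 9.77 and 10.10 to 10.15, 10.52 and 10.29. Il21r, the IL-21 receptor of lymphocytes, rose by 0.30 ± 0.09 (limma adjusted p = 0.036), and Il10rb, the accessory chain of the IL-10 receptor, by 0.21 ± 0.06 (limma adjusted p = 0.0427). Of 5 lymphocyte markers tested in the same arrays 0 rose and 0 fell, with a median change of 0.05. Their part in the result for Il21r was not tested. Il15, a cytokine that supports natural killer and memory T cells, had a difference of 0.19 ± 0.10 and was not called.

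Of the ligands tested in the IL-1 and TNF families, 1 in each rose. Il33, a nuclear cytokine of endothelium and fibroblasts released on damage, was at 10.37, 10.42 and 10.49 in wild-type controls and at 10.65, 10.96 and 10.95 in wild-type knockouts, a rise of 0.43 ± 0.13 (limma adjusted p = 0.0338). Tnfsf13b, the B cell survival factor BAFF made by myeloid cells, was at 9.16, 8.95 and 9.32 in controls and at 9.58, 9.46 and 9.56 in knockouts, a rise of 0.39 ± 0.11 (limma adjusted p = 0.0239). Both were free of overlap in the wild-type. Il1b had a difference of 0.03 (95% confidence interval -0.19 to 0.24), Il1rn, the receptor antagonist, of 0.05 ± 0.07, and Il1rap, the accessory chain of the IL-1 receptors, of -0.10 ± 0.07. Il34, a second ligand of the macrophage growth factor receptor, had a difference of 0.13 ± 0.07, and none of these 4 was called.

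The changes of Tnfrsf11b, Il17ra, Tnfrsf1b, Il10ra, Osmr, Il13ra1, Il27ra and Tnfrsf11a in the wild-type kept their call in every alternative in which they were tested, each array left out in turn included. The other 7 lost it without 1 array or more. With the immediate early score as covariate Il10rb, Il21r, Il6ra and Tnfsf13b were not called (limma adjusted p between 0.0662 and 0.102), nor was Il33 with array weights. Il10rb was also not called with no filter, with median centring or when only these groups were fitted. Il4ra was not called without wild-type control 2 (limma adjusted p = 0.0596), and Il17b was not called without wild-type knockout 1 or 2 (limma adjusted p up to 0.0531). Il21r lost its call without wild-type control 1 or 2 or wild-type knockout 1 or 2 (up to 0.144), and Tnfsf13b without wild-type control 1 or 2 or wild-type knockout 1 or 3 (up to 0.1). Il33 lost its call without any 1 of the wild-type controls or without wild-type knockout 2 or 3 (up to 0.115), and Il6ra without wild-type control 2 or 3 or any 1 of the wild-type knockouts (up to 0.106). Il10rb lost its call without wild-type control 2 or 3, any 1 of the wild-type knockouts, mutant control 2 or mutant knockout 2 (up to 0.154). In the same arrays 15 of 17 macrophage markers, 6 of 14 endothelial, 4 of 11 fibroblast, 2 of 10 cardiac, 2 of 9 adipocyte and 1 of 12 smooth muscle markers rose, and 0 macrophage, 1 endothelial, 0 fibroblast, 1 cardiac, 1 adipocyte and 3 smooth muscle markers fell. Among them were the fibroblast genes Lum at 0.51 ± 0.08 and Col1a1 at 0.34 ± 0.07. Of the cardiac genes, Actc1 at 1.00 ± 0.26 and Tnnt2 at 0.62 ± 0.16 rose, and Ryr2 at -0.86 ± 0.12 fell. The part of these markers in the changes of the members was not tested.

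**Figure D2:**
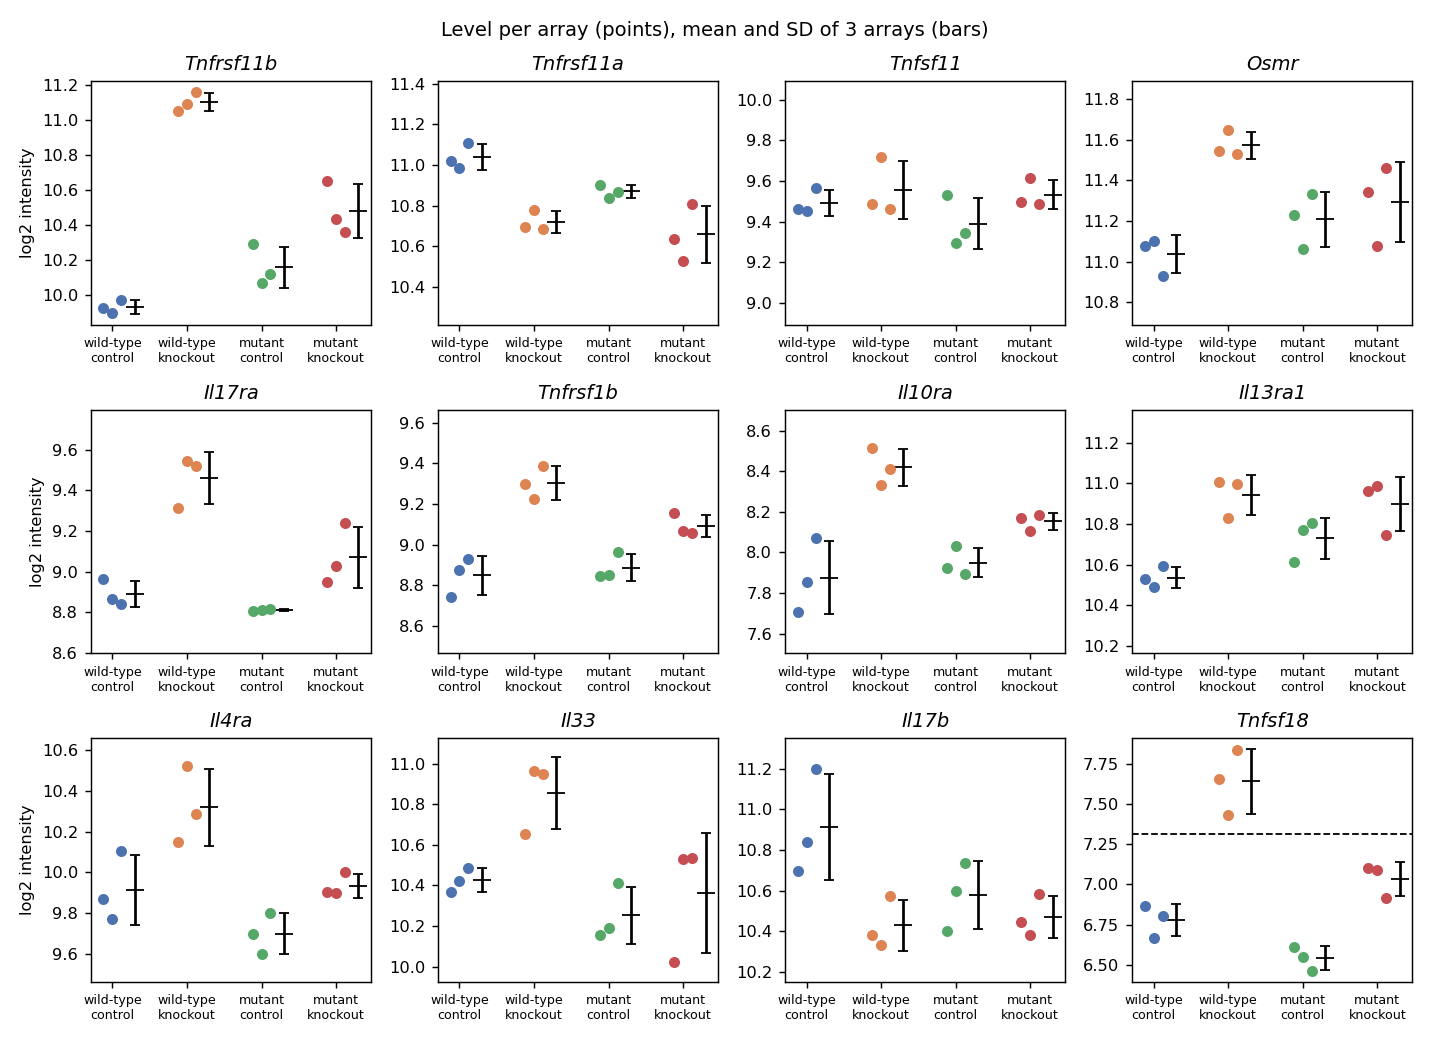
Log2 intensity (vertical axes) of 12 members on each array, by group (horizontal axes), with bars for the mean and SD of 3 arrays; all panels span at least 1.2 log2 units. In Tnfrsf11b the wild-type knockouts, at 11.05 to 11.16, stand above the mutant knockouts, at 10.36 to 10.65, and in Tnfsf18 most arrays lie under the dashed level filter at 7.31.

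The bases upstream of the start of transcription are shown for those of the 8 genes with a stable call that the promoter table held, so that the DNA beside the changes can be read. RefSeq promoters of build GRCm38.p6 matched 86 of the 110 members, and the 250 bases before each start were searched on both strands for the NF-kB consensus, the STAT motif TTCNNNGAA, the AP-1 motif TGANTCA and the SMAD box GTCTAGAC. Capitals mark a match. The sequences are those of Tnfrsf1b (chr4:145246871-145247120, minus strand), Osmr (chr15:6874314-6874563, minus strand), Il13ra1 (chrX:36111858-36112107, plus strand) and Tnfrsf11a (chr1:105780473-105780722, plus strand), from 5′ to 3′.
Tnfrsf1b: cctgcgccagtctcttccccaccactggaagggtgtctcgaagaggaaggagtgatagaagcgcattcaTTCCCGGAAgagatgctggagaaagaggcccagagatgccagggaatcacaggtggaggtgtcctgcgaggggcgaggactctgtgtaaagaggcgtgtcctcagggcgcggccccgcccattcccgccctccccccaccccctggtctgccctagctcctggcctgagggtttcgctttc
Osmr: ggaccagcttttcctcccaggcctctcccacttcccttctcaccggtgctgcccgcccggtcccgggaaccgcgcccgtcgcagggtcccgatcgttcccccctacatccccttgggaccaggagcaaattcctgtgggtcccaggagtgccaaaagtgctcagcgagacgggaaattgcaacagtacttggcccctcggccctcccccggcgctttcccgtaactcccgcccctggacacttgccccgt
Il13ra1: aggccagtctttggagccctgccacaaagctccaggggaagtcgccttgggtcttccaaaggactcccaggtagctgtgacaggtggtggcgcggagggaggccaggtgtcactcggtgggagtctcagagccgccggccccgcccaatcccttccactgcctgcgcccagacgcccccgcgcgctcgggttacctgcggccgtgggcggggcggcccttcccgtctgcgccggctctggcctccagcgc
Tnfrsf11a: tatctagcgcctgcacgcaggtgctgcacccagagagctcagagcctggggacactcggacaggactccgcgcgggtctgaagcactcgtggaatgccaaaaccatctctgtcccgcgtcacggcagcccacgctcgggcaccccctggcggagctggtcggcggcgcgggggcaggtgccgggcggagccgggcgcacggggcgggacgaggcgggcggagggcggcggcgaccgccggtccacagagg
Only the Tnfrsf1b promoter held a match, TTCCCGGAA for STAT, which begins 181 bases before the start. Of the 13 members that rose in the wild-type, 8 had a promoter in the table, of which 1 held a STAT match, 1 an AP-1 match and 0 an NF-kB or SMAD match. Among the 55 tested members with a promoter, 7 held the NF-kB consensus, 7 the STAT motif, 11 the AP-1 motif and 0 the SMAD box. Of all 11792 tested genes with a promoter, 10.8%, 7.10%, 5.85% and 0.271% held them in the same order, and of their single promoters 9.08%, 5.89%, 4.86% and 0.222% did. The AP-1 matches lay among others in Il11, Il15ra, Il17a, Lif and Tnfsf13b. A match describes letters and shows neither binding nor a cause, and no match says only that the letters are not in this window.

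Genes of the same pathways were counted from lists named for their role, and some moved in the wild-type knockouts, where 9.17% of all genes rose and 9.66% fell. Of 11 TNF family genes with other names, 3 rose and 1 fell. Cd40, a receptor of antigen-presenting cells, rose by 0.49 ± 0.09 (limma adjusted p = 0.0019), and Fas, the death receptor, fell by 0.43 ± 0.12 (limma adjusted p = 0.0277). Of 21 cytokines and receptors close to the interleukins, 5 rose and 0 fell, among them the macrophage growth factor receptor Csf1r at 0.98 ± 0.08 and the GM-CSF receptor chains Csf2ra at 0.44 ± 0.06 and Csf2rb at 0.46 ± 0.08. Of 20 genes of TNF receptor signalling, 1 rose and 1 fell, the adaptor Traf5 falling by 0.38 ± 0.11. Of 11 IL-1 and Toll adaptor genes, 3 rose and 1 fell. The adaptor Myd88 was among those that rose, at 0.27 ± 0.06, and Peli2 was the gene that fell, at -0.37 ± 0.07. Of 15 NF-kB genes 4 rose, led by the co-activator Bcl3 at 0.56 ± 0.07 and the inhibitor Nfkbie at 0.43 ± 0.06. Of 18 JAK-STAT genes 4 rose, the feedback inhibitors Cish at 0.79 ± 0.14 and Socs3 at 0.34 ± 0.09, the transcription factor Stat3 at 0.24 ± 0.06 and the phosphatase Ptpn6 at 0.49 ± 0.09. Of 14 adhesion and acute phase genes known to be induced by these cytokines, 5 rose. They were the protease inhibitor Serpina3n at 1.71 ± 0.13, the chemokine Ccl2 at 0.98 ± 0.08, the oxysterol enzyme Ch25h at 0.89 ± 0.14, and the adhesion molecules Icam1 at 0.67 ± 0.09 and Vcam1 at 0.56 ± 0.09. The median change over all tested genes of a list was 0.41 for adhesion and acute phase genes, 0.15 for cytokines and receptors, 0.13 for NF-kB genes, 0.03 for adaptors, 0.02 for TNF family genes, -0.03 for TNF receptor signalling and -0.08 for JAK-STAT genes, beside -0.01 over all genes.

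The same lists were counted in the mutant knockouts, where 7.66% of all genes rose and 5.77% fell. Among TNF family genes with other names 1 of 11 rose, Cd40 at 0.39 ± 0.09. Of the 21 cytokines and receptors 2 rose and 1 fell, with Csf1r at 0.32 ± 0.08, the erythropoietin receptor Epor at 0.23 ± 0.06 and the interferon gamma receptor chain Ifngr2 at -0.27 ± 0.06. In TNF receptor signalling 1 of 20 fell, the deubiquitinase Cyld at -0.27 ± 0.06, and among adaptors 1 of 11 rose, Myd88 at 0.30 ± 0.06. Of the 15 NF-kB genes 3 rose, with Bcl3 at 0.34 ± 0.07, and of the 18 JAK-STAT genes 1 rose and 1 fell, Cish at 0.93 ± 0.14 and Socs2, another feedback inhibitor, at -0.58 ± 0.12. Of the 14 adhesion and acute phase genes 3 rose, Serpina3n at 0.61 ± 0.13, Ch25h at 0.55 ± 0.14 and Icam1 at 0.41 ± 0.09. In the test of the difference between genotypes, Csf1r, Ccl2 and Serpina3n were called, at -0.66 ± 0.12, -0.80 ± 0.12 and -1.10 ± 0.19.

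In the Fbn1 mutant the knockouts had higher levels of 9 members by limma (adjusted p under 0.05) and lower levels of 0. At an unadjusted limma p under 0.05, 26 were higher and 1 lower, Tnfrsf11a. The share of all genes at that looser threshold was not counted. Of the 9, Tnfrsf11b, Il17ra and Tnfrsf1b rose here as in the wild-type, and the other 6 were Tnfrsf19, Il17a, Tnfrsf14, Tnfrsf13c, Tnfrsf4 and Il9r. Of all genes tested 13.4% were called in this comparison, 7.66% upward and 5.77% downward, so 9 of 70 is a share near that of all genes. The median change was 0.12 over the members and 0.03 over all genes, and 28 members did not overlap, 27 of them higher, where 35.9% of all genes did not overlap, 21.7% higher and 14.1% lower. Leaving out mutant control 1 gave a count of 4, leaving out mutant control 2 a count of 2, and leaving out mutant knockout 1 or mutant knockout 2 a count of 4 each. Without the 2 arrays of highest Ucp1, a brown fat gene (mutant control 3 at 8.58 and mutant knockout 1 at 8.21), it was also 4, of which Il17a and Tnfrsf14 are among the 9 and the other 2 are not. Tnfrsf11b and Tnfrsf19 were not called then (limma adjusted p of 0.113 and 0.0611). With the score of immediate early genes as a covariate the count was 0. That score, the mean of centred log2 values over 21 genes, was 0.79, -0.06 and 0.37 in mutant knockouts and -0.34, -0.30 and -0.07 in mutant controls. The split was 6 up and 1 down after quantile normalization and 5 up and 1 down after median centring, and none of the 9 changed sign. In these arrays 10 of 17 macrophage, 7 of 14 endothelial, 4 of 10 cardiac, 2 of 9 adipocyte, 1 of 11 fibroblast and 2 of 12 smooth muscle markers rose, and 0 macrophage, 1 endothelial, 1 cardiac, 0 adipocyte, 3 fibroblast and 2 smooth muscle markers fell. Their part in the calls was not tested.

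Tnfrsf11b rose by 0.32 ± 0.08 in the mutant (limma adjusted p = 0.018), a 1.25-fold change, Il17ra by 0.26 ± 0.08 (limma adjusted p = 0.0453) and Tnfrsf1b by 0.21 ± 0.06 (limma adjusted p = 0.0479). Of the members called in the mutant and not in the wild-type, Tnfrsf19, an orphan receptor known as TROY, was at 8.05, 7.90 and 7.92 in controls and at 8.22, 8.21 and 8.25 in knockouts, and rose by 0.27 ± 0.06 (limma adjusted p = 0.00954). Il17a, the T cell cytokine, was at 7.45, 7.47 and 7.45 in controls and at 7.62, 7.66 and 7.72 in knockouts, near the level filter on every array, and rose by 0.21 ± 0.05 (limma adjusted p = 0.0128). Neither gene had overlapping groups. Tnfrsf14, the receptor HVEM, rose by 0.22 ± 0.05 (limma adjusted p = 0.0165), Tnfrsf4, the T cell receptor OX40, by 0.24 ± 0.07 (limma adjusted p = 0.0352) and Il9r, the IL-9 receptor, by 0.21 ± 0.06 (limma adjusted p = 0.047). Tnfrsf13c, the receptor of BAFF on B cells, rose by 0.17 ± 0.05 (limma adjusted p = 0.0258). Of 5 lymphocyte markers tested in the same arrays 1 rose, the B cell gene Cd79b by 0.15 ± 0.05, while the median over the 5 was -0.22, and Cd79a and Ms4a1 were below the filter. Their part in that result was not tested. Il1b was at 7.48, 7.26 and 7.25 in controls and at 7.73, 7.5 and 7.52 in knockouts, a difference of 0.26 ± 0.10 that was not called (limma adjusted p = 0.105).

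Il17a and Tnfrsf19 kept their call in the mutant when any single array was left out, though not with the immediate early covariate, and the others did not. Tnfrsf11b was not called without mutant control 2 or mutant knockout 1 (limma adjusted p up to 0.0767), nor Tnfrsf14 without mutant control 1 or 2 or mutant knockout 1 or 2 (up to 0.058). Tnfrsf13c lost its call without mutant control 2 or mutant knockout 1 or 2 (up to 0.107), and Tnfrsf4 without any 1 of the mutant controls or mutant knockout 1 or 3 (up to 0.116). Il17ra was not called without 8 of the 12 arrays in turn (all 3 mutant controls, mutant knockouts 2 and 3, wild-type controls 1 and 2 and wild-type knockout 3, up to 0.127). Tnfrsf1b was not called without 7 of them (mutant controls 1 and 2, all 3 mutant knockouts, wild-type control 2 and wild-type knockout 1, up to 0.147). Il9r was not called without 10, all but wild-type control 3 and wild-type knockout 1 (up to 0.133). Tnfrsf1b and Il9r were also not called with quantile normalization (limma adjusted p of 0.0891 and 0.136) or median centring (0.147 and 0.0996). Nor were Tnfrsf13c and Tnfrsf14 with median centring (0.0958 and 0.0683), or Tnfrsf4 with quantile normalization (0.0511). With no filter Il17ra, Tnfrsf1b and Il9r were not called (0.0526 to 0.0581). When only these groups were fitted, Tnfrsf11b, Tnfrsf13c, Tnfrsf4, Il17ra, Tnfrsf1b and Il9r were not called.

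**Figure D3:**
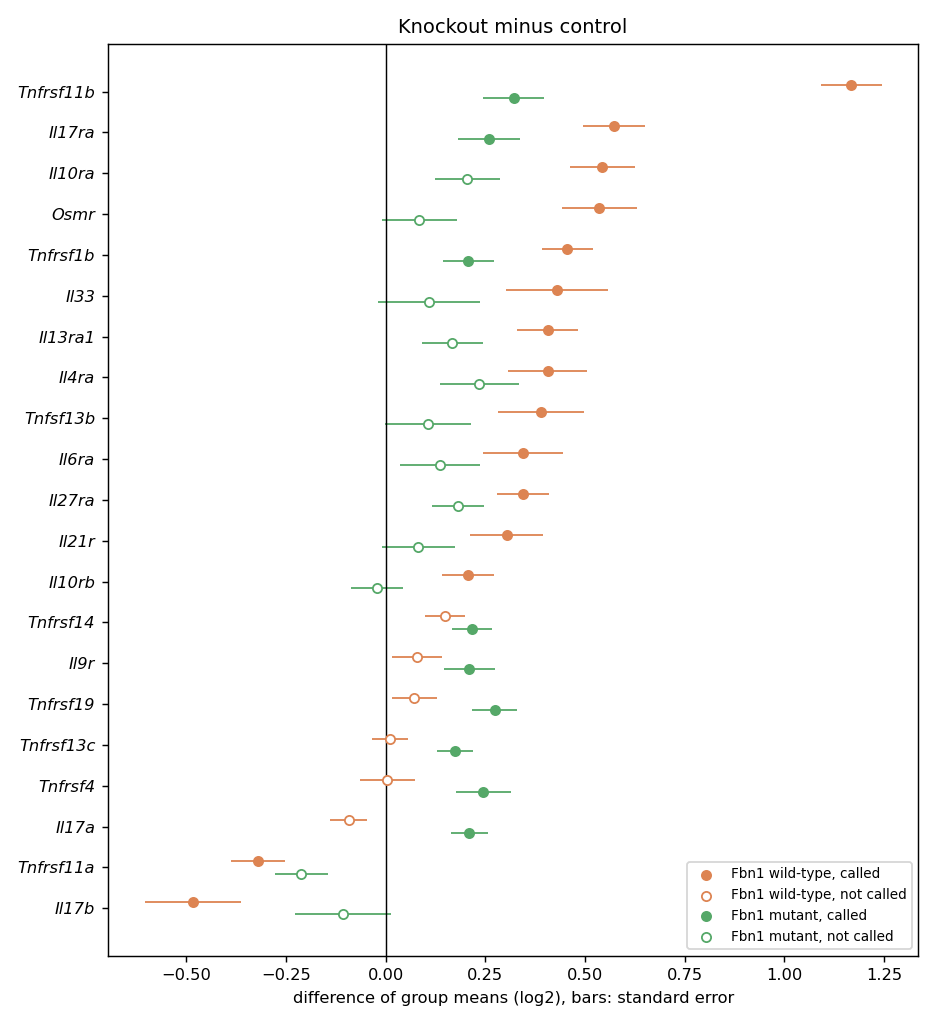
Knockout minus control (log2 difference of group means, horizontal axis) for the 21 members called in at least 1 genotype (vertical axis), with bars for limma's SE; filled points passed the test. The wild-type value of Tnfrsf11b, 1.17, lies furthest from 0, and its mutant value is 0.32.

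The 3 members called in both genotypes, Tnfrsf11b, Il17ra and Tnfrsf1b, had the larger rise in the wild-type. Whether the response differed between genotypes was tested by the difference of the 2 knockout effects, in which 2 members were called where 1.48% of all genes were, 0.401% upward and 1.08% downward. For Tnfrsf11b the effect was smaller in the mutant by 0.85, with a difference of effects of -0.85 ± 0.11 (limma adjusted p = 0.00289), which kept its call in all alternatives. For Il17a the effect was -0.09 ± 0.05 in the wild-type and 0.21 ± 0.05 in the mutant, a difference of 0.30 ± 0.07 (limma adjusted p = 0.0445). It was not called without any 1 of the 12 arrays (limma adjusted p up to 0.105). For Osmr the difference was -0.45 ± 0.13 and was not called (limma adjusted p = 0.124), nor was that of Il17ra, at -0.31 ± 0.11 (limma adjusted p = 0.183). In the same test 5 macrophage markers had a smaller effect in the mutant and 0 a larger one, among them Adgre1 at -0.86 ± 0.12. Of 11 fibroblast markers 3 had a smaller effect in the mutant, Col3a1 at -0.64 ± 0.11, Lum at -0.63 ± 0.11 and Col1a1 at -0.57 ± 0.10. Their part in the result for Tnfrsf11b was not tested.

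Among controls, 3 members differed between the Fbn1 genotypes, 2 higher and 1 lower in the mutant, where 6.49% of all genes were called, 3.17% upward and 3.33% downward. Tnfrsf23, a decoy receptor of the ligand TRAIL, was at 8.85, 8.84 and 8.48 in wild-type controls and at 9.07, 9.47 and 9.25 in mutant controls, and was higher in the mutant by 0.54 ± 0.12 (limma adjusted p = 0.021). Its close relatives Tnfrsf22 and Tnfrsf26 had differences of 0.03 ± 0.08 and -0.05 ± 0.08, and how far their probes cross-react was not tested. Il15ra, which presents IL-15 to neighbouring cells, was at 9.26, 9.29 and 9.32 in wild-type controls and at 9.47, 9.57 and 9.50 in mutant controls, higher by 0.22 ± 0.06 (limma adjusted p = 0.0364). Il17a had a difference of -0.22 ± 0.05 (limma adjusted p = 0.0191). The groups did not overlap in any of the 3 genes, and 19 members in all did not overlap, 7 higher and 12 lower, where 28.1% of all genes did not, 11.4% higher and 16.6% lower. The count of 3 was 1 without wild-type control 3, 1 without mutant control 1 and 0 without mutant control 2. Tnfrsf23 lost its call without wild-type control 3 or mutant control 2 (limma adjusted p up to 0.0949), and Il17a without those or mutant control 1 (up to 0.0637). Il15ra lost its call without any 1 of the controls or wild-type knockout 1 (up to 0.146). None of the 3 was called when only these groups were fitted or without the 2 arrays of highest Ucp1. In the same arrays 3 of 11 fibroblast markers were higher in the mutant (Col1a1 at 0.68 ± 0.07, Col3a1 at 0.56 ± 0.08 and Col1a2 at 0.33 ± 0.06), as were 2 of 17 macrophage markers (Adgre1 at 0.34 ± 0.08 and Fcgr3 at 0.29 ± 0.07). Of 12 smooth muscle markers 2 were lower, Des at -0.47 ± 0.08 and Synpo2 at -0.22 ± 0.05. The part of these markers in the 3 results was not tested.

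Among knockouts, 3 members were higher and 4 lower in the Fbn1 mutant, where 5.96% of all genes were called, 2.80% upward and 3.16% downward. Of the 70 members, 18 did not overlap, 9 higher and 9 lower, where 26.3% of all genes did not, 14.4% higher and 11.9% lower. This comparison uses the same wild-type knockout arrays as the knockout comparison in the wild-type, and the 4 lower members, Tnfrsf11b, Il17ra, Il4ra and Il33, all stood high in those arrays. Tnfrsf11b had a difference of -0.62 ± 0.08 (limma adjusted p = 0.000709), Il17ra had a difference of -0.39 ± 0.08 (limma adjusted p = 0.0113), Il4ra of -0.39 ± 0.10 (limma adjusted p = 0.0391) and Il33 of -0.49 ± 0.13 (limma adjusted p = 0.0405). Lifr was at 10.84, 10.73 and 10.76 in wild-type knockouts and at 11.21, 11 and 11.39 in mutant knockouts, higher by 0.43 ± 0.10 (limma adjusted p = 0.0306). Among controls it was at 11.01, 10.94 and 10.72 against 11.31, 11.04 and 11.28, a difference of 0.32 ± 0.10 that was not called (limma adjusted p = 0.0886). Il15ra was higher among knockouts too, by 0.26 ± 0.06 (limma adjusted p = 0.0181), and Tnfrsf19 by 0.22 ± 0.06 (limma adjusted p = 0.0401). In these arrays 7 of 17 macrophage markers were lower in the mutant, with a median change over the list of -0.40, as were the fibroblast marker Lum at -0.45 ± 0.08 and the smooth muscle marker Myocd at -0.25 ± 0.06. The cardiac marker Myh7 was higher by 0.34 ± 0.06. Their part in the results was not tested.

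Tnfrsf11b was called among knockouts whichever array was left out, and also without the 2 arrays of highest Ucp1, where it was the only one of the 7. The others lost their call without at least 1 array. Tnfrsf19 was also not called with quantile normalization, median centring or no filter (limma adjusted p of 0.1, 0.0964 and 0.054), or with the replicate number as a block (0.0667). Il33 was not called with trend and robust (0.0507), and neither Il33 nor Il15ra when only these groups were fitted (0.0902 and 0.0572). With the immediate early covariate Il33, Il4ra, Lifr and Tnfrsf19 were not called (0.0757 to 0.1). The count of 7 was 4 without wild-type knockout 1, 3 without wild-type knockout 2, 1 without wild-type knockout 3 and 1 without mutant knockout 1. Il17ra was not called without wild-type knockout 3 or mutant knockout 1 (limma adjusted p up to 0.058), and Il15ra without those or wild-type knockout 1 (up to 0.0868). Lifr was not called without any 1 of the wild-type knockouts or mutant knockout 1 or 3 (up to 0.0979). Il33 lost its call without wild-type controls 1 or 2, wild-type knockouts 2 or 3, mutant control 2 or mutant knockout 1 (up to 0.135). Il4ra lost it without wild-type control 1, mutant control 1, wild-type knockouts 2 or 3 or any 1 of the mutant knockouts (up to 0.125), and Tnfrsf19 without mutant control 2 or any 1 of the 6 knockouts (up to 0.13).

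**Figure D4:**
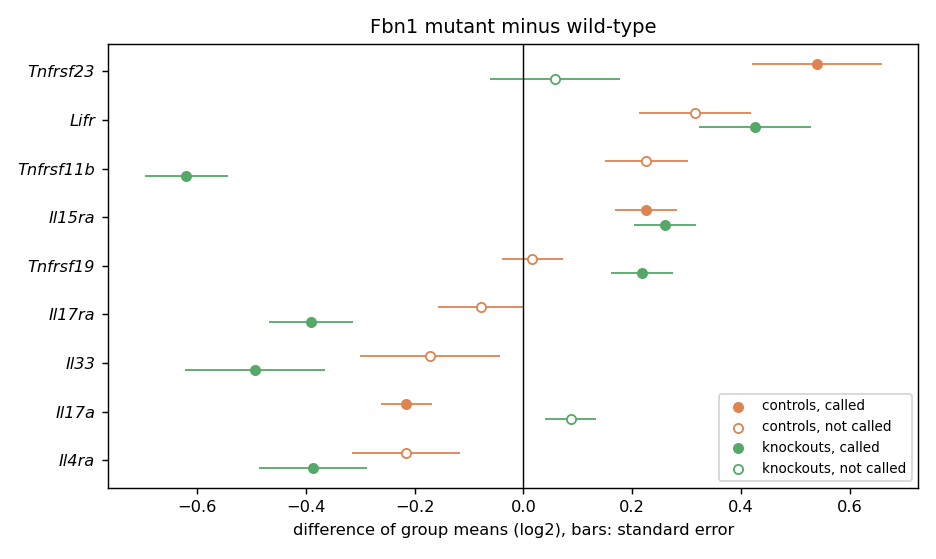
Fbn1 mutant minus wild-type (log2 difference of group means, horizontal axis) among controls and among knockouts for the 9 members called in either (vertical axis), with bars for limma's SE; filled points passed the test. Tnfrsf11b lies at -0.62 among knockouts, and Il15ra is the gene with 2 filled points, at 0.22 and 0.26.

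Members below the level filter were tested only when the filter was dropped, and the clearest of them was Tnfsf18, the ligand GITRL of endothelium and antigen-presenting cells. It was at 6.86, 6.67 and 6.80 in wild-type controls and at 7.66, 7.43 and 7.83 in wild-type knockouts, so that only the wild-type knockouts lay above the filter. It was at 6.61, 6.55 and 6.46 in mutant controls and at 7.10, 7.09 and 6.91 in mutant knockouts. Without the filter it passed the test, with a measured difference of 0.86 ± 0.09 in the wild-type (limma adjusted p = 6.1e-05) and of 0.49 ± 0.09 in the mutant (limma adjusted p = 0.00628), and of -0.60 ± 0.09 between mutant and wild-type knockouts (limma adjusted p = 0.00271). As 3 of its 4 groups lay at levels treated here as background, these values do not give the size of the change in RNA. The same holds for the other members below the filter. Its receptor Tnfrsf18 had a difference of -0.01 ± 0.05 in both genotypes and was not called.

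Of the 40 members below the filter, 7 were called without it in the wild-type knockouts, where 13.5% of all genes were then called, 6.87% upward and 6.62% downward, and 6 of the 7 rose. Besides Tnfsf18 these were Il2ra at 0.37 ± 0.08, Il18 at 0.36 ± 0.08, Il6 at 0.37 ± 0.11, Il1rl2 at 0.33 ± 0.07 and Il1a at 0.28 ± 0.08, while Il2rb fell by 0.26 ± 0.06. Il6 was at 4.93, 4.96 and 4.98 in wild-type controls and at 5.23, 5.69 and 5.07 in wild-type knockouts, so its difference lay within values far below the filter (limma adjusted p = 0.0446). In the mutant knockouts 6 were called without the filter, all upward, where 9.83% of all genes were called, 5.92% upward and 3.91% downward. Osm was one of them at 0.35 ± 0.07, from 7.03, 6.93 and 7.06 in mutant controls to 7.45, 7.26 and 7.35 in mutant knockouts, and the rest were Tnfsf18, Il2ra, Il1a, Tnfsf14 and Il3. In mutant minus wild-type, among controls 1 was called, Il1rl2 at 0.44 ± 0.07, where 4.27% of all genes were, and among knockouts 1, Tnfsf18, where 3.92% were. All these shares are over all genes, bright ones included. The share among genes below the filter alone was not counted. Tnf was at 7.28, 7.2 and 7.30 in wild-type controls, at 7.55, 7.38 and 7.12 in wild-type knockouts, 7.26, 7.27 and 7.12 in mutant controls and 7.25, 7.28 and 7.70 in mutant knockouts. These values overlap in both genotypes, and Tnf and Il10 were not called in any comparison without the filter.

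Of the 70 members tested, 46 were called in no comparison. The share of all genes called in none was not counted, so this is not read as particular to the members. The spread between arrays of a group was unlike among the 70 members, with a median over members of 0.0848 for the mean SD within groups. Tnfrsf21, the death receptor DR6, had the widest, at 0.445. It was at 11.73, 11.36 and 10.44 in wild-type controls, at 11.32, 11.16 and 10.82 in wild-type knockouts, 10.22, 10.22 and 10.90 in mutant controls and 10.08, 10.02 and 10.85 in mutant knockouts. Its array number 3 lay apart from the other 2 in each group, lower in the wild-type groups and higher in the mutant groups. The confidence interval of its knockout effect in the wild-type ran from -0.75 to 0.59, and of the 15 members called in that comparison only Tnfrsf11b had a change outside that interval. Tnfsf10, the ligand TRAIL, came next with a mean SD of 0.281 and a knockout effect between -0.61 and 0.31 in the wild-type.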

How the data were processed

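RNA of the ascending aorta was labelled with biotin and read on 1-colour Affymetrix whole-transcript arrays. The deposited values of 35556 probe sets are intensity on a linear scale, made by the authors with RMA in Partek 6.4, per the submitters' processing notes, and log2 was taken first. The annotation gave 21789 probe sets 1 symbol, 1621 several and 12146 none. Each gene was read by its single-symbol probe set of highest mean. A gene was tested, as 14944 were, when its mean reached the 25th percentile of those probe sets, at log2 7.31 or 159 in intensity. The percentile was at first taken over all annotated probe sets, and the choice was made after first results were seen. All 12 arrays entered a single limma 3.58.1 model in R 4.3.3 with 1 mean for each group (lmFit and eBayes without trend, 8 residual degrees of freedom). P-values are two-sided, adjusted by Benjamini and Hochberg over all genes tested, with a threshold of 0.05. There were 5 contrasts. The procedure was tested on simulated data. Members were named when called, among the brightest 10, next to the filter, or on a list of well-known cytokines and receptors; Tnfsf10 and Tnfsf18 and its receptor were named after their values were seen. The members and the 16 gene lists were chosen with earlier results of these data known. The NF-kB consensus was narrowed after a looser motif matched most promoters. There were 12 kinds of alternative, and 1 filter was added after the data were seen. Raw scans and detection calls were not used here. Precision is limited by the number of arrays.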

Additional observations from a re-analysis of the deposited data

Results flagged for a closer look

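Tnfrsf11b and Il17a stood out because their response to the knockout differed between the Fbn1 genotypes in the test of that difference. For Tnfrsf11b the effect in the mutant minus that in the wild-type was -0.85 ± 0.11 (limma adjusted p = 0.00289), with all 3 mutant knockout arrays, at 10.36 to 10.65, below all 3 wild-type knockout arrays, at 11.05 to 11.16. For Il17a it was 0.30 ± 0.07 (limma adjusted p = 0.0445), with all levels between 7.45 and 7.73, close to the level filter at 7.31. Tnfrsf11b kept this call in all 23 alternatives in which it was tested. Il17a kept it in 5 of 22 and lost it without any 1 of the 12 arrays.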

How the results depend on the processing

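Of the 36 changes called in members, 10 kept their call in every alternative in which they were tested, 26 lost it in at least 1 of the 24 alternatives, and 0 reversed. For the knockout in the wild-type the count of 15 ranged from 9 to 15 when each array was left out in turn, and no other alternative moved it by over 1.5 times. For the knockout in the mutant the count of 9 was 22 with array weights, 3 when only the groups compared were fitted, 0 with a covariate for the immediate early score and 4 without the 2 arrays of highest Ucp1, and it ranged from 2 to 10 when each array was left out. Among controls the count of 3 was 6 with array weights, 0 when only the groups compared were fitted and 1 without the 2 arrays of highest Ucp1, with a range from 0 to 3. Among knockouts the count of 7 was 12 with array weights and 1 without the 2 arrays of highest Ucp1, with a range from 1 to 8. For the difference of effects the count of 2 was 1 with the filter at the median, with no filter, with trend and robust, with the immediate early score and without the 2 arrays of highest Ucp1, and 1 without each array, Tnfrsf11b being the one called. The calls over all genes under the same alternatives are not set beside these counts or the like counts above. The shifts can therefore not be read as particular to the members. The cause of these shifts was not tested. Up and down counts shifted among knockouts, from 3 up and 4 down to 2 up and 5 down with quantile normalization or median centring, and among controls from 2 up and 1 down to 2 and 2 with quantile normalization and 1 and 1 with median centring. The replicate number in the titles as a block gave 15, 6, 3 and 6 members in the 4 comparisons of groups and 1 for the difference of effects. Among controls Il15ra was not called with this block (limma adjusted p = 0.0617), so those 3 members are not the same 3 as without it. Same-numbered arrays did not deviate together, with 3 of 18 correlations over 0.1 and a range from -0.22 to 0.24, so the numbers were not taken to pair the samples. With the percentile of the filter over all annotated probe sets, an alternative chosen after seeing the data, the counts were the same.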
